A study of Mus musculus with 12 samples.

Results

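Of the 8 genes of the interleukin-1 (IL-1) family examined in B16F10 mouse melanoma cells, Il33, Il18 and Il1rap were expressed, and the remaining 5 were at or close to 0 reads. Il33 was higher after sulforaphane (SFN) and after combination treatment with 5-aza-2′-deoxycytidine (DAC) and SFN than in the control. The 8 genes were chosen by name as members of the family: the ligands Il33, Il18, Il1a and Il1b, the receptor antagonist Il1rn, and the receptor chains Il1rl1, Il1r1 and Il1rap. They are 8 of the 24421 genes counted. RNA-seq was performed on 12 libraries in 4 groups of 3 replicates. All groups were the same established cell line, grown in culture. Control cells received the vehicle dimethyl sulfoxide (DMSO). DAC-treated cells received 25 nM DAC for 72 h, with a change of medium part way. SFN-treated cells were left untreated at first and then received SFN for 48 h. In the combination treatment (DAC+SFN), DAC at 25 nM was given for 72 h in all and SFN at 5 µM was present for the last 48 h. The dose of the single SFN treatment is given as 5 nM by the sample labels and as 5 µM by the study's methods, and if the labels are right the SFN and DAC+SFN groups did not receive the same SFN dose.

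Cytokines of the IL-1 family are released by stressed or dying cells and act on neighbouring cells through paired receptor chains. IL-33, encoded by Il33, is stored in the nucleus and alerts immune cells that carry ST2, the receptor chain encoded by Il1rl1. IL-1α, IL-1β and the antagonist IL-1Ra (Il1rn) bind the chain encoded by Il1r1. Both receptors need the shared accessory chain IL1RAP to signal through MyD88 and the IRAK kinases. IL-18 and IL-1β are made as precursors that are cut by caspase-1 in the inflammasome. DAC traps and depletes DNA methyltransferases, so that methylation at CG dinucleotides is lost as cells divide. SFN, an isothiocyanate from cruciferous vegetables, is known as an activator of the transcription factor NRF2.

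Libraries held 15880957 to 27291436 reads on genes. A gene was tested where it reached at least 1 CPM (reads per 1000000 reads of the library) in at least 3 libraries, which for these libraries is 16 to 28 reads, and 11638 genes passed. A count of 3 reads in a library, the upper limit that a count of 0 allows, corresponds to 0.112 to 0.191 CPM and covers counting error only. Libraries with the same replicate number deviated together: for the 18 pairs, the correlation of deviations from the group means lay between 0.270 and 0.732. The replicate number was therefore kept as a block in the test, as the study corrected for a batch effect. Replicate 2 had the highest score on the first principal component in every group. The study's methods give 3 independent repeats of the treatments, and whether a replicate number marks such a repeat is not stated. The labelled cell type was checked against markers. All 7 melanocyte markers were expressed, with a summed level of 21417 to 30155 CPM. Compared to control, Pmel (log2 fold change -0.36, adjusted p = 0.0129) and Tyrp1 (-0.17, adjusted p = 0.0478 by edgeR) were lower with DAC+SFN. None of these markers was called for DAC or SFN against control. All 5 mast cell markers and all 5 keratinocyte markers were at 3 reads or fewer in every library, and so were 7 of the 8 leukocyte markers, including Ptprc. Defining markers of leukocytes, which are the main producers of IL-1β and carriers of ST2, were therefore at or near 0. The exception was Cd68, a lysosomal protein gene that melanoma cells can also express. The summed leukocyte markers, nearly all of it Cd68, lay between 2.36 and 11.3 CPM, with group means of 3.42 CPM in the control, 5.07 CPM in DAC, 7.23 CPM in SFN and 9.74 CPM in DAC+SFN. This order is also that of Il33. By edgeR, Cd68 was higher with SFN (log2 fold change 1.11, adjusted p = 0.000729) and with DAC+SFN (1.55, adjusted p = 1.98e-05). It was also higher with DAC+SFN than with DAC (0.94, adjusted p = 0.0017), and was not called for DAC. The part of cells that carry Cd68 in the Il33 result was not tested. Of the 5 fibroblast markers, Dcn and Lum had at most 3 reads in any library and Col1a1, Pdgfra and Pdgfrb were expressed, with a summed level of 29.6 to 378 CPM. Pdgfra, which encodes a growth factor receptor chain, was lower with SFN (-0.84, adjusted p = 0.0240) and with DAC+SFN (-0.73, adjusted p = 0.0249 by edgeR), at group means of 1.45 to 2.56 CPM, and the other fibroblast markers were not called. Of the 5 endothelial markers only Vwf was tested. It was not called, at group means of 2.33 to 4.35 CPM, and the list summed to 2.15 to 6.91 CPM. The part of these markers in the Il33 result was not tested.

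**Figure D1:**
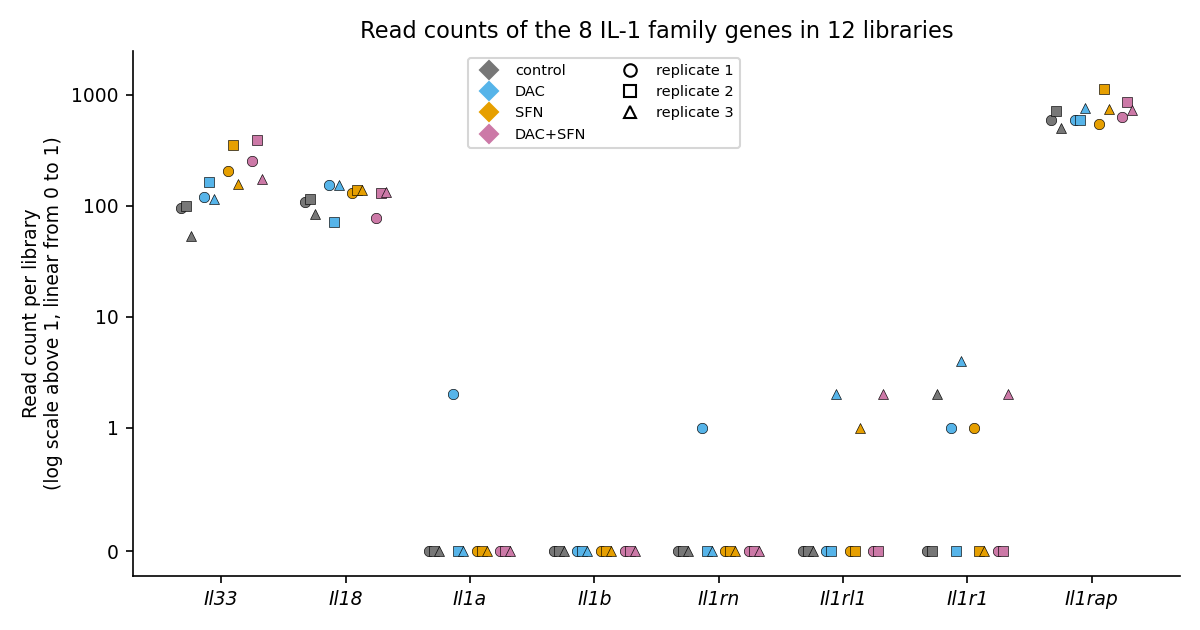
Read count per library (log scale above 1, linear from 0 to 1) of the 8 IL-1 family genes, by group (colour) and replicate (symbol). Il33, Il18 and Il1rap lie above 50 reads in all 12 libraries, and the other 5 genes have at most 4 reads in any library.

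Il33 was expressed at a low level in every library and increased under SFN, alone and with DAC. The gene (Entrez 77125) lies on mm10 at chr19:29925114-29960718 on the plus strand, has 5 annotated transcripts, and shares no exon base with another gene. It was counted 2186 times in the 12 libraries. Il33 was also among the genes that the study picked from these RNA-seq data for RT-PCR, so its test here is not independent evidence. By RT-PCR the study found more Il33 RNA in every treated group than in control cells, the DAC group included. It placed the combination above either drug given alone, a difference from SFN that did not pass the test here. On its cytokine array, medium from control and combination-treated cells gave no detectable IL-33 signal. In bulk RNA, a change in the share of cells that express a gene and a change in its level per cell cannot be told apart.

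Il33 has 2 annotated start sites for which RefSeq (GRCm38.p6) promoter windows were at hand. They are shown because DAC acts on CG dinucleotides, together with the windows of the expressed members Il1rap and Il18 for comparison. Each line gives the 250 bases before the start site, 5′ to 3′ on the gene's strand, with CG dinucleotides in capitals.
Il33 window 1, chr19:29924863-29925112, plus strand: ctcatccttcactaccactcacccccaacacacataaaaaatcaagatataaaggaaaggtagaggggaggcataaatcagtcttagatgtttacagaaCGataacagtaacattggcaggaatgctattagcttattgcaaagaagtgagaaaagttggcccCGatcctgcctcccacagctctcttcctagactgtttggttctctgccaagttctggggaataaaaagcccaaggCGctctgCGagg
Il33 window 2, chr19:29945540-29945789, plus strand: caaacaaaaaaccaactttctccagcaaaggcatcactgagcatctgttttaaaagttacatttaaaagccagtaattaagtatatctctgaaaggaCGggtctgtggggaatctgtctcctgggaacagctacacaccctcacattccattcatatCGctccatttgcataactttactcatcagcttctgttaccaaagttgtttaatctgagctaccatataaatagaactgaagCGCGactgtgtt
Il1rap window, chr16:26581455-26581704, plus strand: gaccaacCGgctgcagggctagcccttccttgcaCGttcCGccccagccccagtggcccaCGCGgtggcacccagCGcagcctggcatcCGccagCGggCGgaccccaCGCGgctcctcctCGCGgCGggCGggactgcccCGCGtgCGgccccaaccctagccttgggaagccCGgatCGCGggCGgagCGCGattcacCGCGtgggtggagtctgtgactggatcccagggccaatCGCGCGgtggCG
Il18 window, chr9:50554450-50554699, plus strand: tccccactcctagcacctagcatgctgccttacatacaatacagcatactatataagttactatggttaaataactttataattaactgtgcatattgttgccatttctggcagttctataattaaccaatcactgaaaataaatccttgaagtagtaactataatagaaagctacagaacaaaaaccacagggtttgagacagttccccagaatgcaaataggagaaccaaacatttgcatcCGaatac
Both Il33 windows held 4 CG dinucleotides and the Il18 window held 1, against a median of 6 over all 32851 RefSeq windows of this length. The Il1rap window held 30, more than 94.1% of the windows, and 74.4% of its bases were G or C. The Il33 windows were 45.2% and 39.6% G or C. The short motifs TATAAA (the TATA box), TGANTCA (AP-1 type) and CATGTG (the M-box bound by the melanocyte factor MITF) were searched on both strands. TATAAA was found in both Il33 windows, 203 and 29 bases before the start, and 12.4% of all windows held it. The Il33 windows held no match to TGANTCA, which was in 6.75% of all windows, or to CATGTG, which was in 12.3%. A match or its absence describes these letters only. DNA methylation was not measured in these libraries, and counts per gene do not tell the 2 Il33 starts apart.

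In the control, Il33 had 95, 99 and 53 reads in replicates 1 to 3, or 4.37, 4.26 and 2.72 CPM. DAC gave 120, 165 and 116 reads (4.97, 10.5 and 4.35 CPM). The SFN libraries had 204, 355 and 159 reads (9.60, 13.4 and 6.50 CPM). All 3 SFN libraries were above all 3 control libraries, whereas the DAC and control groups overlapped because DAC replicate 3 was just below control replicate 1. With DAC+SFN, Il33 reached 255, 390 and 175 reads (11.6, 18.7 and 8.17 CPM). These were the highest values of each replicate number, and they too lay above all control libraries. Mean levels were 3.78 ± 0.921 CPM in the control, 6.61 ± 3.40 in DAC, 9.82 ± 3.43 in SFN and 12.8 ± 5.36 in DAC+SFN (SD, n = 3 each). Replicate 2 was the highest in all 3 treated groups and replicate 3 was the lowest in every group. Averaged over groups, replicates 1, 2 and 3 lay -0.02, 0.52 and -0.50 log2 units from the gene's mean.

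**Figure D2:**
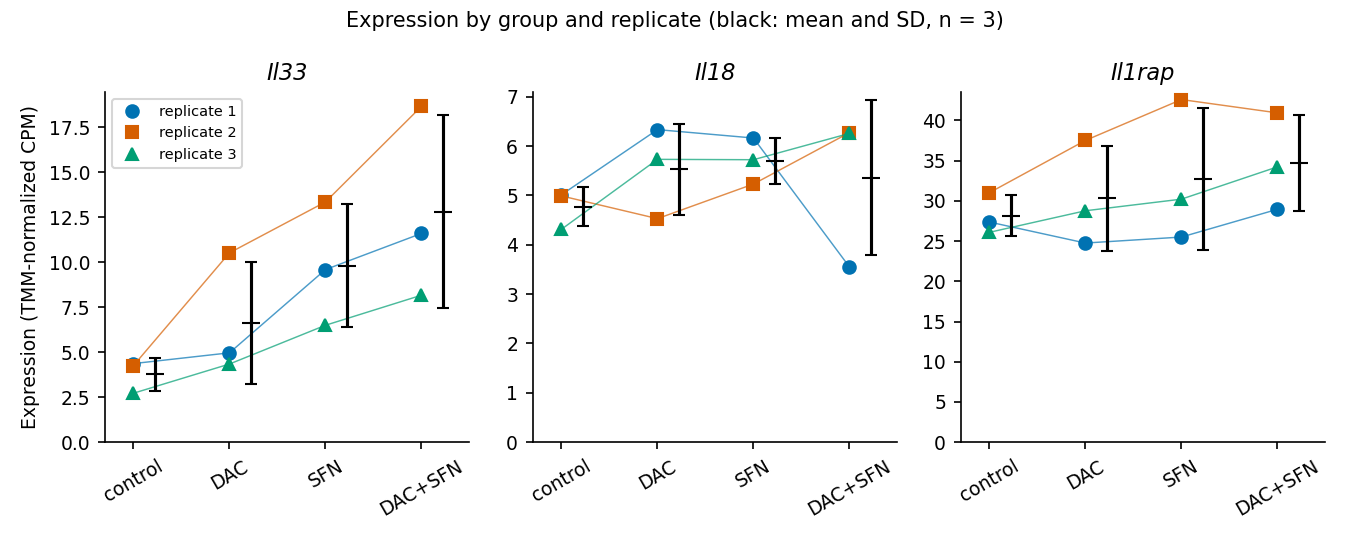
Expression (TMM-normalized CPM, linear axis from 0) of Il33, Il18 and Il1rap in the 4 groups. Coloured points joined by lines are replicates, and black bars are the mean and SD of 3 libraries. Il33 is higher in all treated libraries than in the control library of the same replicate, with means from 3.78 CPM in the control to 12.8 CPM in DAC+SFN.

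Compared to control, SFN treatment increased Il33 by 1.35 on the log2 scale (SE 0.17, 95% confidence interval 0.99 to 1.72), a 2.56-fold change. The adjusted p was 0.000117 (edgeR quasi-likelihood test, Benjamini-Hochberg over all 11638 genes, as for all adjusted p-values here). Within replicates 1, 2 and 3 the log2 differences were 1.12, 1.63 and 1.23. Il33 was the only member of the 3 tested that was called (adjusted p under 0.05) for SFN, where 13.9% of all tested genes were called, and 1.28% were called with a fold change over 2. Its log2 fold change was above that of 99.4% of the tested genes. Without the replicate block the log2 fold change was 1.37 and the call was lost (adjusted p = 0.155).

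The combination treatment gave the largest Il33 value of the 3 treatments. Compared to control, DAC+SFN increased it by 1.72 on the log2 scale (SE 0.17, interval 1.37 to 2.08), or 3.30-fold, with an adjusted p of 6.77e-06. The log2 differences within replicates were 1.39, 2.11 and 1.55. Il33 and Il1rap were both called in this comparison, where 31.6% of all tested genes were called. Il33 alone of the members passed a fold change of 2, as did 2.66% of all tested genes. The call for Il33 was kept under all 17 alternative settings, with an adjusted p of at most 0.0214, which was that without the replicate block. Leaving out all 4 replicate 2 libraries, which had the highest Il33 values under treatment, gave a log2 fold change of 1.47 (adjusted p = 0.000889), and that of SFN was then 1.17 (adjusted p = 0.00760).

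DAC alone gave Il33 a log2 fold change of 0.74 (SE 0.18, interval 0.37 to 1.12, 1.68-fold), which missed the threshold after correction (adjusted p = 0.117 by edgeR). No member was called for DAC, where 0.180% of all tested genes, 21 in number, were called. Il33 was higher in DAC than in the control in all 3 replicates, by 0.18, 1.29 and 0.66 log2 units, so the difference in replicate 2 was far above that in replicate 1. The log2 fold change was above that of 99.0% of the tested genes. It was 0.42 (adjusted p = 0.970) without the 4 replicate 2 libraries. Conversely, Il33 was called by DESeq2 (adjusted p = 0.0256), with no filter on low counts (0.00799) and when only the DAC and control libraries were fitted (0.0208).

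Adding SFN to DAC raised Il33 by a further 0.98 log2 units relative to DAC alone (SE 0.16, interval 0.65 to 1.31, 1.97-fold, adjusted p = 0.00100 by edgeR). The differences were 1.21, 0.82 and 0.90 in replicates 1 to 3, and the groups overlapped because DAC replicate 2 exceeded DAC+SFN replicate 3. Il33 was the only member called here, against 16.1% of all tested genes. The call was lost without the replicate block (log2 fold change 0.98, adjusted p = 0.229). Adding DAC to SFN gave a smaller difference of 0.37 (SE 0.15, interval 0.05 to 0.69, 1.29-fold, adjusted p = 0.208 by edgeR). The difference was positive in all 3 replicates, at 0.27, 0.48 and 0.33, but no member was called, against 1.61% of all tested genes. When only these 2 groups were fitted, Il33 was called with the same log2 fold change (adjusted p = 0.0306).

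On the log2 scale the Il33 change of the combination treatment was below the sum of the single treatments. The interaction, which is the difference between them, was -0.38 (SE 0.23, interval -0.87 to 0.12, adjusted p = 0.930 by edgeR). A departure from additive log2 changes was not detectable with 3 replicates. The interval still holds both a moderate shortfall and a small excess. No member and no gene of the 11638 was called for the interaction (0.00%), while 683 genes (5.87%) had an unadjusted p under 0.05. The 4 mean levels of Il33 were ordered control, DAC, SFN and DAC+SFN. Of the neighbours in this order, DAC and control did not pass the test, and neither did DAC+SFN and SFN. SFN exceeded DAC by 0.61 log2 units (SE 0.16, interval 0.27 to 0.95, adjusted p = 0.0338 by edgeR), in a comparison where 5.89% of all tested genes were called. That call was lost in 8 of 17 alternative settings, among them without the replicate block (adjusted p = 0.744) and when any of DAC replicates 1 and 3 or SFN replicates 1, 2 and 3 was left out (adjusted p from 0.0740 to 0.204). These comparisons share control or treated libraries and are not independent of each other.

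**Figure D3:**
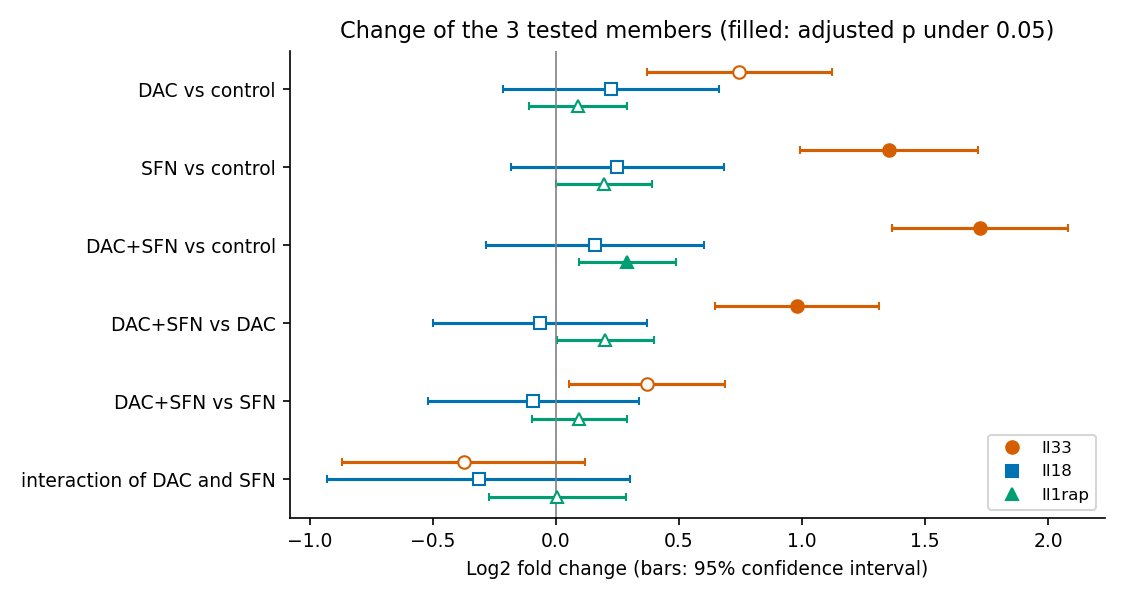
Log2 fold change (points) with its 95% confidence interval (bars) for Il33, Il18 and Il1rap in 5 comparisons of groups and for the interaction of DAC and SFN. Filled points have an adjusted p under 0.05. Il33 is filled for SFN and DAC+SFN against control and for DAC+SFN against DAC, and Il1rap for DAC+SFN against control only.

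Il18 was expressed in every library and was not called in any comparison. It encodes a ligand that drives interferon-γ production in T and NK cells, and lies at chr9:50554827-50581840 on the plus strand (Entrez 16173). Control libraries had 109, 116 and 84 reads (5.01, 4.99 and 4.31 CPM). DAC libraries had 153, 71 and 153 reads (6.33, 4.53 and 5.73 CPM). These groups overlapped, since DAC replicate 2 was below the first 2 controls. SFN libraries had 131, 139 and 140 reads (6.16, 5.23 and 5.72 CPM), all above the control libraries. DAC+SFN gave 78, 131 and 134 reads (3.55, 6.27 and 6.26 CPM), so that replicate 1 was the lowest of all 12 libraries while the others were among the highest. Mean levels were 4.77 ± 0.397, 5.53 ± 0.919, 5.71 ± 0.467 and 5.36 ± 1.57 CPM in control, DAC, SFN and DAC+SFN. Compared to control, the log2 fold change was 0.22 for DAC (interval -0.22 to 0.66, adjusted p = 0.766), 0.25 for SFN (-0.19 to 0.68, adjusted p = 0.453) and 0.16 for DAC+SFN (-0.28 to 0.60, adjusted p = 0.595), all by edgeR. The upper bounds for SFN and DAC+SFN, 0.68 and 0.60, lie below the Il33 log2 fold changes of 1.35 and 1.72 in the same comparisons. For DAC the Il18 interval overlapped that of Il33, which was 0.37 to 1.12.

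The other ligands were at or close to 0. Il1b, at chr2:129364570-129371139 on the minus strand, was counted 0 times in all 12 libraries. Il1a, at chr2:129299610-129309972 on the minus strand, had 2 reads, both in DAC replicate 1. The receptor antagonist gene Il1rn, at chr2:24336853-24351494 on the plus strand, had 1 read, in the same library. These counts are below the 3 reads that a count of 0 allows, so no difference between groups could be detected for them at this depth.

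Among the receptor chains, the shared accessory chain gene was expressed and both ligand-binding chains were not detected above the floor of a few reads. Il1rl1, which encodes the IL-33 receptor ST2 (chr1:40429570-40465415, plus strand), had 5 reads in all. They came from replicate 3 of DAC (2), SFN (1) and DAC+SFN (2). Il1r1, the IL-1 receptor (chr1:40225080-40317257, plus strand), had 10 reads in 5 libraries, with at most 4 in DAC replicate 3. Both genes were therefore below 1 CPM everywhere and were not tested. In the libraries of replicate 3, where most of these reads fell, the fibroblast marker Col1a1 was also highest, at 245 to 356 CPM against 15.6 to 24.1 CPM in replicate 2, in all 4 groups. Col1a1 was not called in any comparison. The fibroblast markers Dcn and Lum had at most 1 and 3 reads in any library. Among the replicate 3 libraries, that of SFN had 0 Il1r1 reads and that of the control had 0 Il1rl1 reads. The part of Col1a1 in the receptor reads was not tested.

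Il1rap was called in 1 comparison, that of the combination treatment with control, with a small increase. The gene (Entrez 16180, chr16:26581704-26730117, plus strand) has 7 annotated transcripts, which include membrane-bound and soluble forms of the accessory chain that counts per gene do not separate. It shares 552 exon bases with the antisense gene Gm20319, which had at most 1 read in any library. Control libraries had 595, 721 and 508 Il1rap reads (27.4, 31.0 and 26.1 CPM). DAC gave 598, 588 and 768 reads (24.8, 37.5 and 28.8 CPM), and SFN gave 542, 1132 and 739 reads (25.5, 42.6 and 30.2 CPM). With DAC+SFN the counts were 636, 855 and 733 (29.0, 40.9 and 34.2 CPM). Every treated group overlapped the control, and replicate 2 was the highest in all 4 groups. Mean levels were 28.2 ± 2.56, 30.3 ± 6.52, 32.8 ± 8.83 and 34.7 ± 6.01 CPM in control, DAC, SFN and DAC+SFN.

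For DAC+SFN against control the Il1rap log2 fold change was 0.29 (SE 0.092, interval 0.09 to 0.49, 1.22-fold, adjusted p = 0.0270 by edgeR), with within-replicate differences of 0.08, 0.40 and 0.39. This call, in a comparison where 31.6% of all tested genes were called, was lost in 9 of 17 alternative settings. Without the replicate block the adjusted p was 0.341, and with any of control replicates 2 and 3 or of the 3 DAC+SFN libraries left out it was 0.0573 to 0.188. The log2 fold changes for DAC (0.089, adjusted p = 0.797) and SFN (0.19, adjusted p = 0.177) did not pass, and within replicate 1 both were slightly negative. For SFN, Il1rap passed when control replicate 1 was left out (0.31, adjusted p = 0.0499).

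The 3 expressed members were compared per length as RPKM, which is CPM divided by the exon length in kilobases. In the control the RPKM levels were 1.31 for Il33, 2.48 for Il1rap and 4.63 for Il18, and in DAC+SFN they were 4.44, 3.06 and 5.20. The ratio of Il33 to Il18 RPKM was 0.225 to 0.311 in the control libraries. It was 0.280, 0.830 and 0.271 in DAC and 0.556, 0.912 and 0.406 in SFN. In DAC+SFN it was 1.17, 1.06 and 0.467, so that Il33 exceeded Il18 per length in 2 of the 3 libraries. The ratio was above all control values in every SFN and DAC+SFN library, and in DAC only in replicate 2.

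Other genes of the pathway were examined from 5 lists of 72 genes in all, of which 39 were tested. None was called for DAC. For SFN, 3 were higher and 5 were lower than in the control, and for DAC+SFN 6 were higher and 5 were lower. The totals of 8 and 11 among the 39 genes stand beside 13.9% and 31.6% of all tested genes. Their median log2 fold change was -0.0032 for SFN and 0.033 for DAC+SFN, beside medians of 0.0040 and 0.0078 over all tested genes. No listed gene was called with a fold change over 2, so the genes named below were chosen after their values were seen. Without the replicate block none was called for SFN, and 3 were higher and 1 was lower for DAC+SFN. With control replicate 1 or 2 or any SFN library left out, 1 to 2 were higher and 0 to 2 were lower for SFN. With control replicate 1 or 2 or DAC+SFN replicate 2 left out, 3 were lower for DAC+SFN, and in the last case 3 were higher.

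Genes of the signalling steps next to the receptor were mostly expressed, with 20 of 22 tested. Irak2, a kinase-like adaptor of the MyD88 complex that sustains NF-kB signalling, rose from 16.1 ± 1.52 CPM in the control to 24.7 ± 5.01 in SFN and 28.8 ± 3.71 in DAC+SFN, with 19.9 ± 2.62 in DAC. The log2 fold change was 0.61 for SFN (SE 0.096, adjusted p = 0.000767) and 0.84 for DAC+SFN (SE 0.096, adjusted p = 2.50e-05 by edgeR). The DAC+SFN call was kept in all 17 alternative settings, whereas the SFN call was lost in 2, among them without the replicate block (adjusted p = 0.117). Irak1, the kinase that acts beside it, rose less, by 0.30 for SFN (adjusted p = 0.0131) and 0.39 for DAC+SFN (adjusted p = 0.00106). Ikbkg, the regulatory subunit of the IκB kinase complex, and the stress kinase gene Mapk9 were higher with DAC+SFN, by 0.28 and 0.22 (adjusted p = 0.0156 and 0.00875 by edgeR). Traf6, the ubiquitin ligase that links IRAK kinases to TAK1, was lower with SFN (-0.29, adjusted p = 0.00779) and with DAC+SFN (-0.20, adjusted p = 0.0270). Tollip, an inhibitor of IRAK1, and Tab2, a TAK1 adaptor, had log2 fold changes of -0.18 and -0.19 for SFN (adjusted p = 0.0420 and 0.0344 by edgeR). Ube2n, the ubiquitin-conjugating partner of TRAF6, was lower with DAC+SFN (-0.16, adjusted p = 0.0402 by edgeR). Of 17 alternative settings, the SFN calls were lost in 10 for Tollip, 8 for Tab2, 6 for Irak1 and 4 for Traf6. The DAC+SFN calls were lost in 8 for Ube2n, 7 for Traf6, 6 for Mapk9 and 4 for Ikbkg. The DAC+SFN call of Irak1 was kept in all 17. Within the list 2 genes were higher and 3 were lower for SFN, and 4 were higher and 2 were lower for DAC+SFN. These counts among 20 tested genes stand beside 13.9% of all tested genes called for SFN and 31.6% for DAC+SFN.

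Of the other receptors and binding proteins, 2 of 8 were tested. Sigirr, a receptor-like inhibitor of IL-1 and IL-33 signalling, fell from 8.01 ± 3.03 CPM in the control to 5.09 ± 2.06 in SFN and 4.42 ± 1.16 in DAC+SFN, with 6.36 ± 2.08 in DAC. Its log2 fold change was -0.65 for SFN (SE 0.15, adjusted p = 0.00904) and -0.83 for DAC+SFN (SE 0.15, adjusted p = 0.00101 by edgeR). The SFN call was lost in 5 of 17 alternative settings, among them without the replicate block (adjusted p = 0.423). The DAC+SFN call was lost in 1, that without the block (adjusted p = 0.158). Il18bp, a secreted inhibitor of IL-18, was not called, at group means of 2.05 to 2.44 CPM. Of the 5 further ligands only Il36g was tested, at 1.34 to 1.71 CPM and not called, and the other 4 had at most 3 reads in any library.

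Among inflammasome and processing genes, 9 of 19 were tested. Pycard, the inflammasome adaptor that recruits caspase-1, fell by 0.42 log2 units for SFN (adjusted p = 0.0319) and by 0.82 for DAC+SFN (SE 0.13, adjusted p = 0.000266 by edgeR). Its mean level was 20.7 ± 3.78 CPM in the control, 18.1 ± 4.79 in DAC, 15.8 ± 4.62 in SFN and 11.95 ± 3.74 in DAC+SFN. The SFN call was lost in 7 of 17 alternative settings and the DAC+SFN call in 1. Without the replicate block the adjusted p values were 0.524 and 0.0886. Casp1, which encodes the enzyme that cuts IL-18 and IL-1β, had 1 to 8 reads per library and was not tested. The calpain gene Capn1, which belongs to a protease family that can process IL-33 and IL-1α, was higher with DAC+SFN (0.35, adjusted p = 0.00891 by edgeR) and was not called for SFN.

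Genes known to respond to IL-1 in other cells were mostly at low counts, with 7 of 18 tested and 7 at 3 reads or fewer in every library, among them Cxcl2, Ccl2, Ccl20 and Ptgs2. Sod2, which encodes mitochondrial superoxide dismutase, was the only one called, at 0.21 for SFN (adjusted p = 0.0342) and 0.17 for DAC+SFN (adjusted p = 0.0484 by edgeR). These calls were lost in 10 and 13 of 17 alternative settings.

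**Figure D4:**
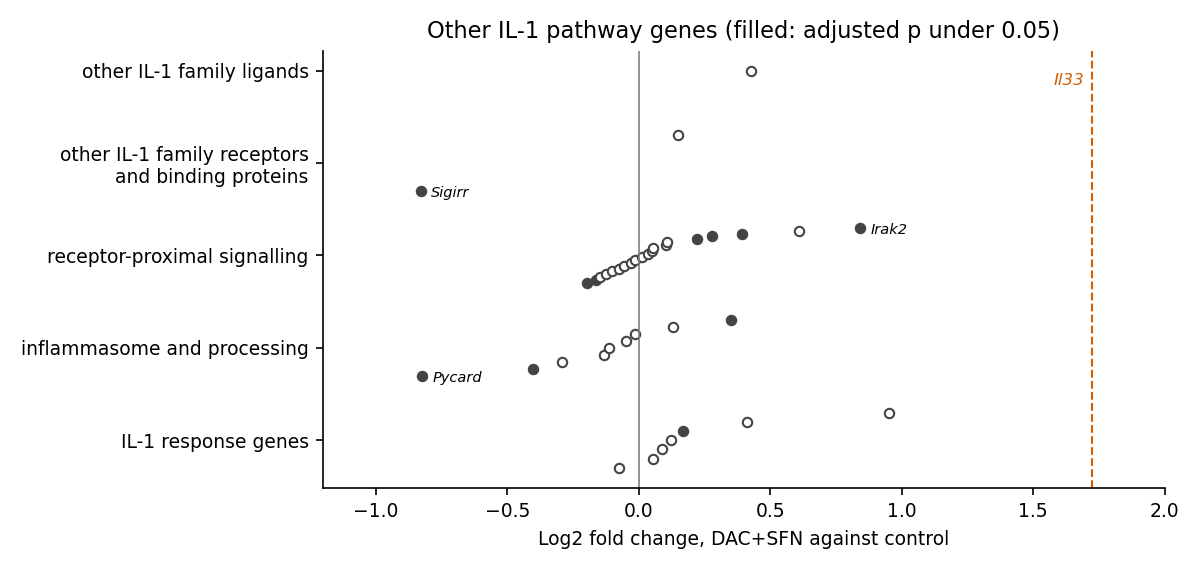
Log2 fold change for DAC+SFN against control of the 39 tested pathway genes, in 5 lists. Each point is a gene, filled where the adjusted p is under 0.05, and the dashed line marks Il33. All 39 genes lie between -0.83 and 0.95, below the 1.72 of Il33.

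Il33 differed from the other expressed members in its profile over the 12 libraries. Profiles were compared as log2 CPM centred on each gene's mean, by the root mean square difference from Il33. The nearest of the 11637 other tested genes were Etv5 (0.196 log2 units), Fxyd5 (0.214), Aldh1a3 (0.245), Ctsh (0.246), Fam212b (0.255), Fblim1 (0.258), Spry4 (0.259) and Ccnd1 (0.282). The median over all genes was 0.797 log2 units, and the values of Il18 and Il1rap were 0.797 and 0.632. A gene with a flat profile would score 0.783, the root mean square deviation of Il33 from its own mean. The median and the Il18 value lie close to that. Like Il33, the nearest genes were low in the control, highest in replicate 2 of the treated groups, and highest of all in DAC+SFN replicate 2, except Aldh1a3, which was highest in SFN replicate 2. The profiles of all genes come from the same 12 libraries, with their treatments and replicate numbers, so the likeness is a description.

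**Figure D5:**
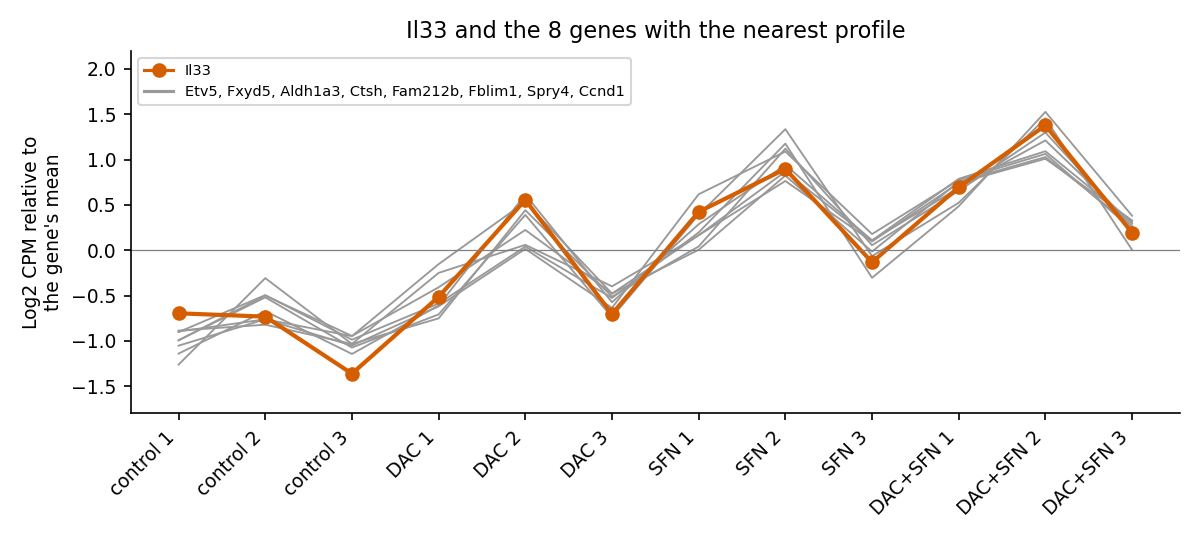
Log2 CPM relative to each gene's mean over the 12 libraries, for Il33 (orange) and the 8 genes with the nearest profile (grey). Lines join libraries of the same gene for reading only. All 9 genes are below their mean in the 3 control libraries, and all except Aldh1a3 peak in DAC+SFN replicate 2.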

How the data were processed

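RNA-seq libraries were made from B16F10 cells with a stranded mRNA kit and sequenced on a NextSeq 500, per the labels. The authors checked reads with FastQC 0.11.7, used Trimmomatic 0.38 for trimming and TopHat 2.1.1 for alignment to mm10, and counted uniquely aligned reads on known genes with HTSeq in Blast2GO. The deposited values are raw counts per gene symbol, 1 library each. Reads from repeated sequence were dropped, which can lower counts of genes with close copies. The gene annotation and strand setting are not given in the sources used here.

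Groups and replicate numbers were taken from the sample labels. Counts of the 24421 genes were analysed with edgeR 4.0.16 in R 4.3.3 (quasi-likelihood test, TMM normalization, at least 1 CPM in at least 3 libraries) in 1 model of all 12 libraries, with the replicate number as a block. Adjusted p-values are Benjamini-Hochberg values over all 11638 genes tested. Genes were called at an adjusted p under 0.05. Fold changes used a prior count of 0.125, and profiles of log2 CPM a prior count of 2. The 5 comparisons of groups and the interaction were planned, and SFN against DAC was added after the data were seen. The pairing rests on the study's batch correction, the shared replicate numbers and the correlations of same-numbered libraries, which were 0.270 to 0.732. Pairs with different numbers reached 0.282, with a mean of -0.27. Deviations from group means cancel within each group, which by itself makes that mean negative. It therefore adds nothing to the case for the pairing. Replicates differed by more than sampling noise (chi-square per gene 13.2 to 35.9). In data simulated for SFN against control over 11638 genes, 86.6%, 96.9% and 100% of genes changed 1.5-, 2- and 4-fold were called. These rates were not split by expression level, so they do not give the rate at the read counts of Il33 or Il18.

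Gene positions and exon lengths were taken from GENCODE M21 and promoter windows from RefSeq GRCm38.p6, where all 8 genes were found in 13 windows. The rule for named genes took the 8 members, any pathway gene called with a fold change over 2 (there was none) and the 8 genes nearest to the Il33 profile. The pathway genes and markers named in the text fall outside it and were chosen after their values were seen. 1 gene of the pathway lists is counted in the totals but not reported here by name. The members and lists were chosen with earlier results of these data known. Alternatives were DESeq2 1.42.0, other size factors, other filters, no replicate block, other fits, only the groups compared, and left-out libraries. The alternatives that leave out all 4 libraries of a replicate number, the fold change rule and those for pathway genes were chosen after seeing the data.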

Additional observations from a re-analysis of the deposited data

How the results depend on the processing

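The number of members called for DAC against control was 0, and became 1 with the DESeq2 Wald test, with no filter on low counts and with only the groups compared, Il33 in each case. For SFN against control it went from 1 to 0 without the replicate block and was 1 to 2 with libraries left out. For DAC+SFN against control it went from 2 to 1 without the replicate block, with only the groups compared and under a fold change over 2, and was 1 to 2 with libraries left out. For DAC+SFN against DAC it went from 1 to 0 without the replicate block and under a fold change over 2. For DAC+SFN against SFN it went from 0 to 1 with only the groups compared. The cause of these changes was not tested. Without the block the Il33 calls for SFN and for DAC+SFN against DAC were lost, and that for DAC+SFN against control was kept.

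With libraries left out, the Il33 log2 fold change was 0.42 to 1.03 for DAC, 1.11 to 1.55 for SFN and 1.47 to 1.92 for DAC+SFN, and 0.81 to 1.15 for DAC+SFN against DAC. It kept its sign in every alternative. Values near 0 changed sign. Il1rap for DAC was -0.0074 without control replicate 2 and -0.0033 without replicate 2, and over left-out libraries -0.0074 to 0.22. Il18 for DAC+SFN was -0.035 without DAC+SFN replicate 2 and -0.042 without replicate 3, within -0.04 to 0.45. Il18 for DAC+SFN against DAC was 0.090 without DAC replicate 1, 0.24 without DAC+SFN replicate 1 and 0.28 without replicate 1, within -0.32 to 0.28. Against SFN it was 0.20 without DAC+SFN replicate 1 and without replicate 1, within -0.28 to 0.20. Il18 for SFN against DAC was -0.11, -0.070 and -0.032 without DAC replicate 2, SFN replicate 1 and replicate 2, within -0.11 to 0.19. The Il1rap interaction was -0.0039 with no filter, -0.022 without the replicate block, -0.00052 with the edgeR version 4 fit, and -0.15 to 0.18 with libraries left out. The Il18 interaction was 0.048 without replicate 1, within -0.65 to 0.048. With libraries left out, 0 to 3 pathway genes were higher and 0 to 5 lower for SFN against control and 2 to 6 and 3 to 7 for DAC+SFN against control. Il33 and Il18 had 53 to 390 and 71 to 153 reads per library, which limits the precision of their values.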
